A study of Mus musculus with 4 samples.

Results

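The clustered protocadherin genes lie side by side on mouse chromosome 18 in 3 groups named alpha, beta and gamma. Members were all chromosome 18 genes of the mm9 annotation whose symbol starts with Pcdha, Pcdhb or Pcdhg, and 25 of 37310 annotated genes met this rule. They covered 21 of the 66382 bins of 40 kb into which the genome was divided, and 50 bins once the gaps between the groups and flanks of 500 kb were included. All 25 were annotated on the plus strand, 24 as protein-coding genes and Pcdhb20 as a pseudogene.

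Chromatin contacts were measured by Hi-C, in which fragments of DNA that lie close together in the nucleus are ligated and sequenced as read pairs, in male mouse embryonic stem cells (mESCs). Per the study's methods, the wild-type (WT) cells were the N3 line grown in 2i medium, and the Firre knockout (KO) cells carried a deletion of the X-linked Firre long non-coding RNA locus and were grown in 2i medium with irradiated feeder fibroblasts that were depleted before use. Each genotype had 2 libraries, both technical duplicates, pooled into 1 matrix, which leaves no spread between replicates and no significance test for any difference given here. Labelled genotype, culture and possibly cell line differed together, and their parts in any difference cannot be told apart.

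The matrices held 65611035 read pairs for WT and 46635652 for Firre KO, of which 16.1% and 35.6% joined different chromosomes. The bin that lies wholly inside Firre (6720401G13Rik in the annotation; chrX:47920001-47960000) held 1782 read pairs in WT and 2011 in Firre KO, or 3.41 and 3.35 times the median X-linked bin. This bin lies inside the interval that the methods give for the deletion in the Firre KO mouse, and its read pairs show no loss of it. The name Firre KO therefore stands here for the label alone. The median X-linked bin held 0.275 times the read pairs of the median autosomal bin in WT and 0.440 times in Firre KO, and both were labelled male. Apart from a setting with the level between autosomes subtracted, how these series-wide differences bear on the protocadherin genes was not tested.

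Clustered protocadherins are cell adhesion proteins of neurons that let a neuron tell its own branches from those of other cells. In the alpha and gamma groups, alternative first exons, each with its own promoter, are spliced to shared constant exons, whereas each beta gene is a single unit. Each neuron uses only a few of these promoters, and the choice is known to involve CTCF, cohesin and enhancers that lie downstream of the alpha genes and downstream of the gamma genes. Embryonic stem cells are not neurons, so the matrices describe the locus in a cell type outside its best known setting.

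The alpha group held Pcdha11, annotated from 37089939 to 37347311, and Pcdha3, from 37105801 to 37108685, within 7 bins at chr18:37080001-37360000. In this annotation most alternative first exons of the group are joined under Pcdha11, whose 10 transcripts start in 5 bins. The beta group held 22 genes, from Pcdhb1 at 37424652 to Pcdhb22, which ends at 37681073, within 8 bins at chr18:37400001-37720000. The gamma group was a single entry, Pcdhgc5, from 37833989 to 38001527, with 10 transcripts that start in 4 bins, within 6 bins at chr18:37800001-38040000. The 25 members start in 8 distinct bins, and up to 6 of them share 1 bin, so members of a bin share 1 value and are not independent.

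All 21 member bins were kept in both matrices. They held between 405 and 4330 read pairs in WT, with a median of 1471, and between 254 and 3031 in Firre KO, with a median of 1032. The beta bins were the thinnest group, with medians of 1105 and 690 read pairs and 4 to 15 sites of HindIII, the enzyme that cut the chromatin, in each. Read pairs to other chromosomes made up 19.4% of the member bins' total in WT (95% Wilson interval 19.0 to 19.8) and 44.7% in Firre KO (44.1 to 45.3). Over all of chromosome 18 these shares were 18.01% and 38.8%. All intervals in this text cover counting error only, since duplicate molecules and the spread between cultures do not enter them.

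The first question was whether alpha, beta and gamma form sub-domains. Contact was measured as the mean ratio of observed over expected values, where the expected value is the chromosome mean at the same distance, so that 1 is the level set by distance alone. Each block was placed among all autosomal blocks of the same shape outside the region, 56233 to 57412 of them depending on the block. As whole blocks, contacts within the alpha and gamma groups were above the level of their distance in both matrices. Contact between alpha and gamma was below the level of its distance. These levels are those of corrected values. Levels from uncorrected read pairs, here and below, also carry the number of read pairs that each bin held. With uncorrected read pairs the Firre KO intervals included 1 within alpha (0.921 to 1.10) and between alpha and gamma (0.814 to 1.10).

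**Figure D1:**
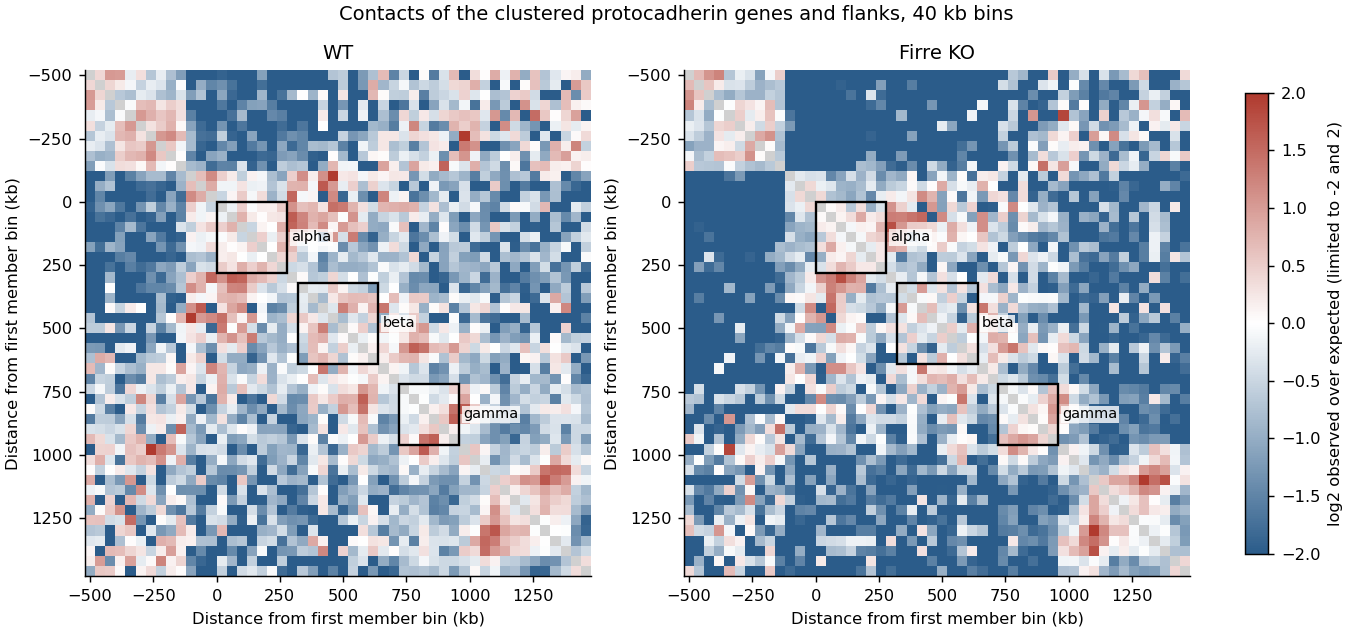
Contact map of the clustered protocadherin genes and flanks in WT (left) and Firre KO (right), with both axes in kb from the first member bin and colour giving log2 observed over expected per pair of 40 kb bins, limited to -2 and 2. Black squares outline the alpha, beta and gamma groups. Pairs without read pairs are drawn at -2, the darkest blue, and the Firre KO matrix held fewer read pairs in all. A dark blue edge lies 120 kb before the alpha group in both matrices, and the blue area around the 3 groups is deeper in Firre KO. The mean of alpha with the upstream flank was 0.230 in Firre KO against 0.415 in WT.

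Within the alpha group, observed over expected was 1.21 in WT (95% interval 1.13 to 1.29; 1377 read pairs) and 1.13 in Firre KO (1.03 to 1.23; 671 read pairs). Within the gamma group it was 1.28 (1.22 to 1.35) in WT and 1.24 (1.15 to 1.33) in Firre KO. The values exceeded 89.5% of autosomal blocks of the same shape for alpha and 93.5% for gamma in WT, and 73.4% and 85.8% in Firre KO. Within the beta group, the tandem array of single-unit genes, the value was 1.11 (0.997 to 1.25) in WT and 0.937 (0.790 to 1.12) in Firre KO. Both beta intervals include 1. The level depended on the setting. In WT it was 1.21 (1.06 to 1.38) at distances of at least 80 kb and 1.13 (1.01 to 1.27) with the expected value of all autosomes. Uncorrected read pairs gave 0.395 (0.359 to 0.434) in WT and 0.252 (0.217 to 0.294) in Firre KO. The median beta bin held 1105 read pairs in WT, beside 1888 for chromosome 18, and how far this sets the uncorrected level was not tested. In corrected values the WT interval included 1 or lay above it, depending on the setting, and each Firre KO interval included 1. The side of the distance level on which beta lay was thus not settled.

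Alpha met beta at 1.10 (0.995 to 1.23) in WT and 1.01 (0.872 to 1.17) in Firre KO, close to contact within beta itself. Beta met gamma at 1.11 (1.02 to 1.22) in WT and 0.802 (0.698 to 0.929) in Firre KO. With uncorrected read pairs beta was below its distance level with both neighbours in WT, at 0.573 with alpha and 0.840 with gamma. Only this block of the 6 had a difference beyond counting error, with a log2 ratio of Firre KO over WT of -0.48 (-0.70 to -0.25). It stayed short of the 1.5-fold used as the limit here, and 14.1% of autosomal blocks of that shape had a lower ratio. Alpha met gamma, the most distant pair of groups, at 0.691 (0.595 to 0.802) in WT and 0.743 (0.623 to 0.885) in Firre KO, below its distance level in both. Of autosomal blocks of that shape, 27.3% in WT and 42.3% in Firre KO were lower still. None of the 6 blocks within and between groups, that is 0 of 6, differed by more than 1.5-fold, a difference seen in 10.0% of autosomal blocks of these shapes. With uncorrected read pairs 1 of 6 passed that limit, contact within beta, at a log2 ratio of -0.65.

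Contacts with the flanks were lower in Firre KO than in WT. All 7 blocks that join a group with a flank, or the flanks with each other, were lower in Firre KO by more than 1.5-fold, beside 27.7% of autosomal blocks of these shapes past that limit in either direction. The count depended on the correction: with uncorrected read pairs all 7 were lower but only 3 by more than 1.5-fold, with log2 ratios from -1.03 to -0.44, and with the expected value of all autosomes 6 were. With the level between autosomes subtracted, a setting chosen after seeing the data, all 7 were, with log2 ratios from -0.97 to -0.62. Alpha with the upstream flank stood out already in WT, at 0.415 (0.381 to 0.454), a value below which only 0.379% of autosomal blocks fell. In Firre KO it was 0.230 (0.201 to 0.267), and its log2 ratio of -0.85 (-1.08 to -0.63) was undercut by 2.63% of blocks. With uncorrected read pairs that log2 ratio was -0.56, short of 1.5-fold.

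Beta with the upstream flank had 0.633 in WT and 0.296 in Firre KO, a log2 ratio of -1.10 (-1.47 to -0.72) that was undercut by 5.61% of blocks. Gamma with the upstream flank had 0.818 in WT and 0.498 in Firre KO, a log2 ratio of -0.72 (-1.05 to -0.39) that was less unusual, with 22.6% of blocks below it. On the other side, gamma with the adjoining downstream flank had 0.729 (0.689 to 0.772) in WT and 0.425 (0.386 to 0.469) in Firre KO. In uncorrected read pairs the WT level was above that of its distance, at 1.2, and that of Firre KO below it, at 0.657. That log2 ratio of -0.78 (-0.94 to -0.62) was undercut by 3.32% of autosomal blocks. Alpha and beta with the downstream flank had log2 ratios of -0.60 (-0.99 to -0.22) and -0.83 (-1.17 to -0.50), below which 26.9% and 10.6% of blocks fell. By log2 ratio, alpha and gamma with the flanks they adjoin thus had the lowest places of the flank blocks in the autosomal range.

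The lower contact was not limited to members, because the upstream flank with the downstream flank was lower too, at 0.899 and 0.529, with a log2 ratio of -0.76 (-1.03 to -0.50). Autosomal blocks of that shape, at distances of 1000 to 1960 kb, had a median log2 ratio of -0.23, and 23.3% of them were lower than the flanks.

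**Figure D2:**
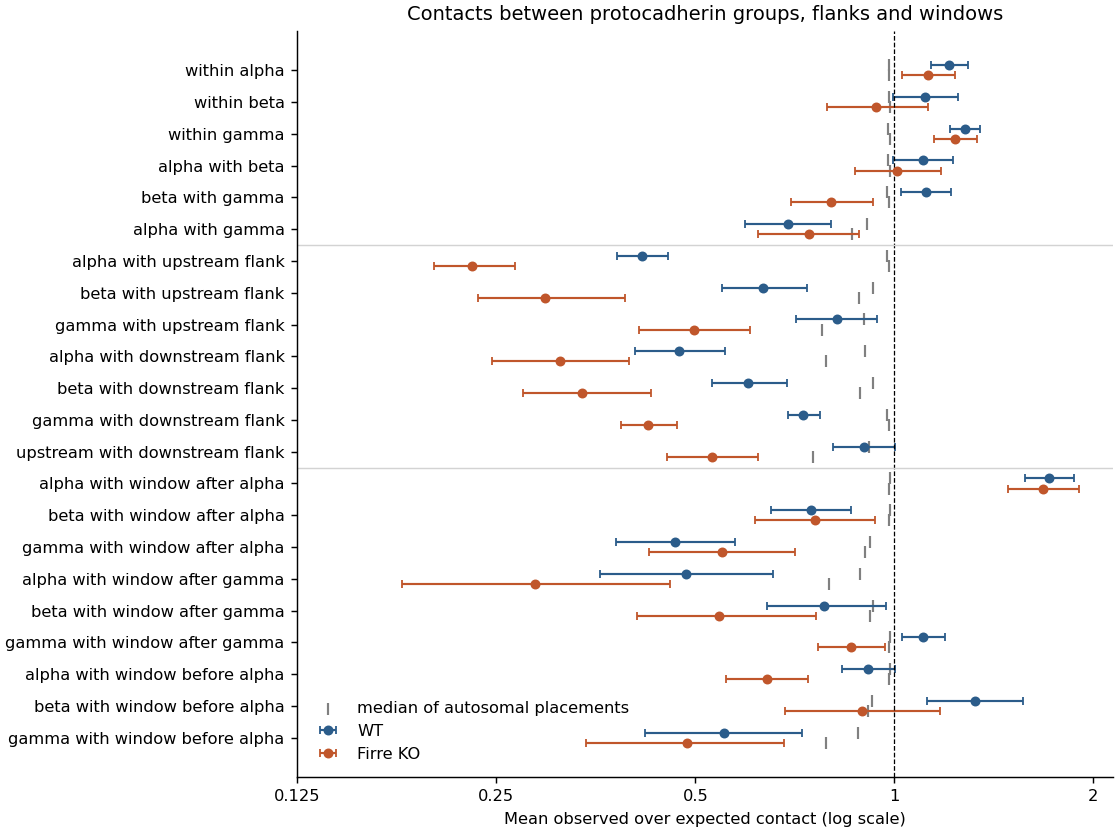
Mean observed over expected contact (log scale) for blocks within and between the protocadherin groups (top), with the flanks (middle) and with 3 windows of 120 kb (bottom), in WT (blue) and Firre KO (orange). Bars are 95% counting intervals and grey ticks the medians of autosomal placements of the same shape. The 7 flank blocks lie further left in Firre KO, while alpha with the window after alpha lies near 1.7 in both, at 1.72 and 1.68.

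Insulation asked where the cluster is separated from its surroundings and whether its groups are separated from each other. The insulation score is the log2 of the contacts that cross a bin, in a square of 480 kb to either side, over the chromosome's mean, so a low score means few crossing contacts. A boundary is a called valley of that score, and its strength is the height of the valley's walls. Each matrix had 2 boundaries in the region of the cluster and flanks, and none was called in the gap between alpha and beta or in the gap between beta and gamma.

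The first boundary lay ahead of the alpha genes. In WT it was at chr18:36920001-36960000, a bin that holds Wdr55, Dnd1, Hars, Hars2 and Zmat2, with a strength of 2.56 that ranked 4 of 77 on chromosome 18 and 86 of 2185 on the autosomes. In Firre KO it was 1 bin further on, at chr18:36960001-37000000, with a strength of 6.37 that ranked 1 of 71 on chromosome 18 and 20 of 2022 on the autosomes. Hars and Hars2 encode histidyl-tRNA synthetases and Dnd1 a germ cell RNA-binding protein. The boundary lies where this row of closely spaced genes ends and a stretch of 120 kb without protein-coding genes precedes the alpha group.

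At the WT position of this boundary the score was -1.93 in WT and -4.80 in Firre KO, with a difference of -2.87 that was undercut by 0.225% of 58102 autosomal bins. The size of that difference rests on how the square is summarised. The interquartile mean drops the strongest and the weakest pairs, and the read pairs it left were not counted. The whole square held 157 read pairs in Firre KO against 533 in WT. A plain mean gave -1.85 and -3.29, a difference of -1.44 (-1.73 to -1.15). The strength of the boundary rested on this choice too. With the plain mean it was 2.08 in WT and 3.57 in Firre KO, for which no rank was taken.

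The second boundary was weaker, and its place depended on the settings. With the study's settings WT had it inside the gamma group at chr18:37880001-37920000, with a strength of 0.770 that ranked 54 of 77. Firre KO had it in the first bin after the gamma group, at chr18:38040001-38080000, with a strength of 1.94 that ranked 31 of 71. That bin holds part of Diap1, a regulator of actin assembly, which also reaches into the last gamma bin. Of the 2 WT boundaries in the region, 1 had a Firre KO boundary within 1 bin, beside 44.3% of WT boundaries on the autosomes outside the region. With a square of 240 kb, closer to the size of the groups, both matrices had a boundary in the first bin after gamma, with strengths of 1.13 in WT and 1.5 in Firre KO. WT had a further one of strength 0.219 inside beta. With the plain mean in the 480 kb square both boundaries fell in the same bins in both matrices, the second of them in the last gamma bin at chr18:38000001-38040000, so that 2 of 2 matched. With uncorrected read pairs the bin at 37880001 was called in Firre KO and not in WT, which then had 1 boundary in the region. With a square of 960 kb 0 of 2 matched: the boundary ahead of alpha lay at 36760001 in WT and 36880001 in Firre KO, and the second at 37840001 and 38000001. In the first bin after gamma the 480 kb score was -0.57 in WT and -1.67 in Firre KO, and the plain mean differed by -0.84 (-0.99 to -0.69).

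Between the groups the scores differed by gap. In the gap between alpha and beta the score was -0.08 in WT and -0.29 in Firre KO. A plain mean there differed by -0.25 (-0.42 to -0.07) with the 480 kb square, whereas with the 240 kb square the difference of -0.02 (-0.29 to 0.24) was within counting error. In the first bin of the gap between beta and gamma the scores were -0.48 and -0.79. The plain mean differed by -0.34 (-0.49 to -0.19) there. In the second bin of that gap the scores were -0.57 and -0.98, lower than in 84.4% and 84.1% of autosomal bins, and the plain mean differed by -0.52 (-0.68 to -0.37). The WT score of that bin was as low as that of the WT boundary inside gamma, -0.56, although no boundary was called in it. Of autosomal bins, 27.8% had a lower difference than the first bin of this gap, 22.6% than the second and 35.3% than the gap between alpha and beta.

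**Figure D3:**
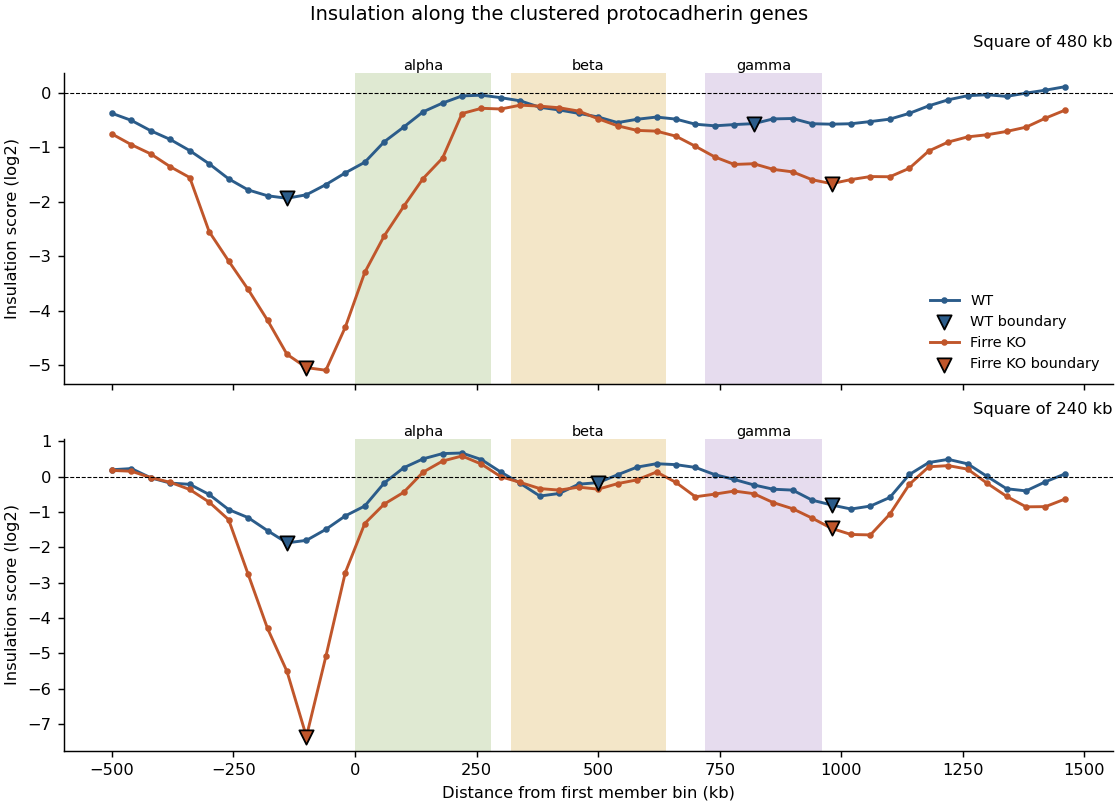
Insulation score (log2) of each 40 kb bin against distance from the first member bin in kb, with a square of 480 kb (top) and 240 kb (bottom), in WT (blue) and Firre KO (orange); triangles mark called boundaries and shading the 3 groups. Both matrices have their strongest boundary ahead of the first member bin, 160 kb before it in WT and 120 kb in Firre KO, with strengths of 2.56 in WT and 6.37 in Firre KO in the top panel, and no triangle lies in the gaps between groups. With a plain mean in the 480 kb square the strengths were 2.08 in WT and 3.57 in Firre KO.

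Contacts with windows downstream of the alpha genes and of the gamma genes came next. The positions of the known enhancers were not in the sources used here, so 3-bin windows were set from the annotation alone. Whether these windows hold the enhancers was not tested. The window after alpha, at chr18:37320001-37440000, consists of the last alpha bin, in which Pcdha11 ends, the gap bin and the first beta bin, in which Pcdhb1 starts, and the window after gamma, at chr18:38040001-38160000, follows the last gamma bin and includes most of Diap1 and all of Hdac3, a histone deacetylase gene. A window of equal size before alpha, at chr18:36960001-37080000, served for comparison. The window after alpha thus overlaps the alpha group by 1 bin and the beta group by 1 bin. Each of these bins was left out of its group when that group was set against the window. Part of the contact of alpha and of beta with this window therefore lies within the group. The other windows lie wholly outside the groups they adjoin.

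Alpha met the window after alpha at 1.72 (1.58 to 1.87; 1149 read pairs) in WT and 1.68 (1.49 to 1.90; 556 read pairs) in Firre KO. These values exceeded 99.4% and 97.5% of autosomal blocks of the same shape, and the log2 ratio was -0.03 (-0.24 to 0.18). A window of 3 bins wholly outside the alpha group, added after the data were seen, gave 1.53 (1.40 to 1.67) in WT and 1.5 (1.32 to 1.71) in Firre KO. The window before alpha, likewise outside the group, gave lower values. Alpha met the window before it at 0.914 (0.833 to 1.00) in WT and 0.641 (0.555 to 0.739) in Firre KO. Beta met the window after alpha at 0.749 in WT and 0.759 in Firre KO, and gamma at 0.466 and 0.549, all below the level of their distance. In Firre KO 2 of these were not clear of that level under another setting, as gamma had 0.911 (0.736 to 1.12) from uncorrected read pairs and beta 0.825 (0.660 to 1.04) as a ratio of sums. From uncorrected read pairs beta had lower values, 0.486 in WT and 0.384 in Firre KO.

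Among alpha transcript starts, contact with this window was highest in the third bin of the group, where 3 Pcdha11 transcripts start, at 2.36 in WT and 2.38 in Firre KO. The second bin, with 1 transcript start, had 2.21 and 2.04. The first bin, where Pcdha11 itself, Pcdha3 and 4 of the Pcdha11 transcripts start, had 1.71 and 1.42. Toward the window the values declined, to 1.37 and 1.6 in the bin at 37240001 and to 1.11 and 0.778 in the bin at 37280001. Contact above distance was therefore highest in the second bin and the third rather than at the edge of the window. Of the beta members, the 6 from Pcdhb17 to Pcdhb22, in 1 bin, had the lowest WT contact with the window after alpha. It was 0.597 (0.390 to 0.888) in WT and 0.808 (0.447 to 1.36) in Firre KO, and the WT interval overlapped those of other beta bins.

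Gamma met the window after gamma at 1.11 (1.03 to 1.19) in WT and 0.861 (0.765 to 0.967) in Firre KO, with a log2 ratio of -0.36 (-0.56 to -0.17) that was undercut by 14.2% of autosomal blocks. The level rested on the settings. With uncorrected read pairs it was 1.5 in WT and 1.16 (1.04 to 1.29) in Firre KO, and with a window of 5 bins it was 0.860 (0.804 to 0.921) in WT. A window that starts with the last gamma bin, as the window after alpha does with the last alpha bin, gave 1.58 (1.48 to 1.68) in WT and 1.33 (1.21 to 1.47) in Firre KO, above the distance level in both. Inside the group the bin at 37880001, where 4 Pcdhgc5 transcripts start, had the highest value in WT, 1.82, and 1.13 in Firre KO, where the bin at 37840001 had 1.15. The first gamma bin, with the start of the Pcdhgc5 entry, had 1.14 and 1.02. The bin at 37960001, with another 4 transcript starts, had 0.762 and 0.644, and the last gamma bin, which holds the shared 3′ end, 0.606 and 0.474. Pcdhb1 had the lowest WT contact of any member with the window after gamma, at 0.365 (0.129 to 0.871; 6 read pairs). In Firre KO it had 0.401 (0.102 to 1.15; 4 read pairs). Its WT interval overlapped those of other members, such as the start bin of Pcdha11 at 0.689 (0.287 to 1.45), so this rank was within counting error.

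Beta met the window after gamma at 0.783 (0.642 to 0.971) in WT and 0.542 (0.408 to 0.761) in Firre KO. Alpha met it at 0.485 in WT and 0.286 in Firre KO, a log2 ratio of -0.76 (-1.48 to -0.04) from 66 and 34 read pairs. That was the only 1 of the 9 window blocks to differ by more than 1.5-fold, which 22.1% of autosomal blocks of these shapes did. It was short of that limit with uncorrected read pairs, at -0.46, and with the window from the last gamma bin, at -0.33. Beta with the window after gamma passed it with uncorrected read pairs, at -0.62, and with a window of 5 bins, at -0.73, and beta with the window before alpha did with uncorrected read pairs, at -0.59. Beta with the window before alpha was above its distance level in WT, at 1.32 (1.12 to 1.57), and not in Firre KO, at 0.893 (0.683 to 1.17), with a log2 ratio of -0.57 (-1.0 to -0.14). From uncorrected read pairs it was below that level in both, at 0.785 and 0.521.

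**Figure D4:**
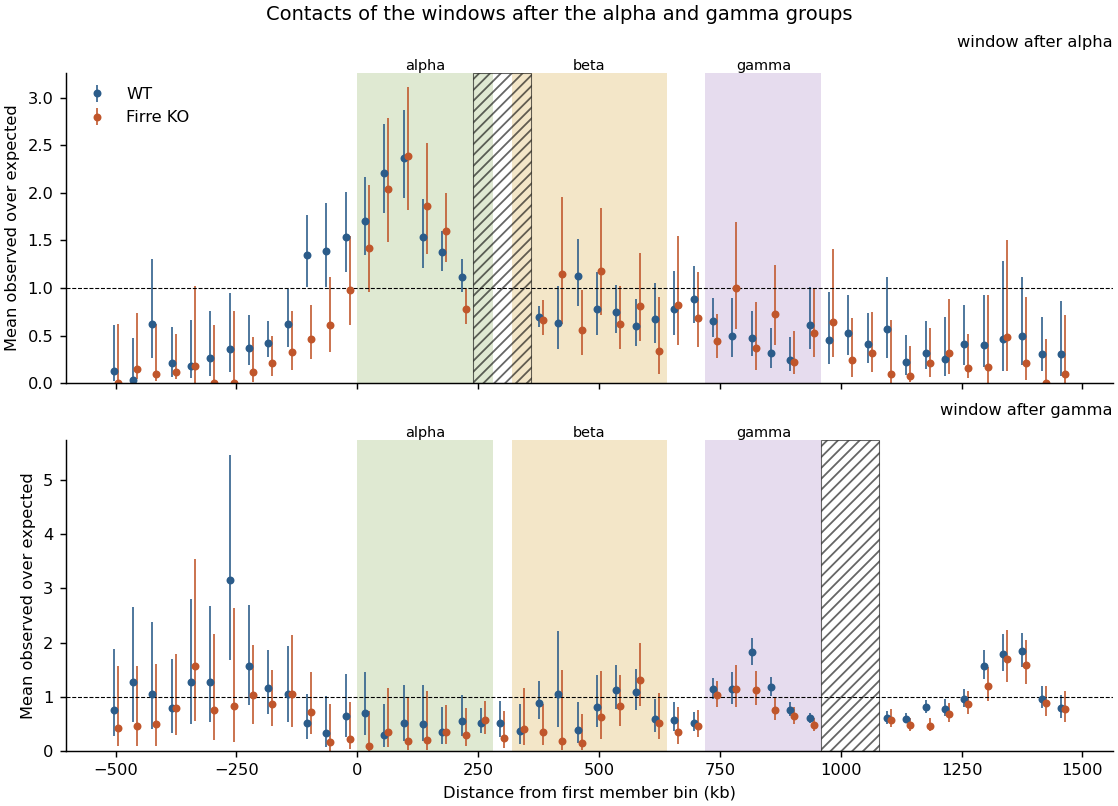
Mean observed over expected contact of each 40 kb bin with the window after alpha (top) and the window after gamma (bottom), against distance from the first member bin in kb; hatching marks the window, shading the 3 groups and bars 95% counting intervals, in WT (blue) and Firre KO (orange). The alpha bins reach 2.36 in WT and 2.38 in Firre KO with the window after alpha, while the gamma bins reach 1.82 and 1.15 with the window after gamma.

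Single bin pairs were ranked among the group bins, the gaps and the window after gamma, so pairs that involve other flank bins, some of them as strong, did not enter. Of 71 such pairs at least 120 kb apart with at least 20 read pairs in WT, the strongest joined the gamma bin at 37880001 with the first bin after gamma, at 3.14 (2.56 to 3.81; 102 read pairs) in WT and 1.69 (1.09 to 2.52; 24 read pairs) in Firre KO. Next were the alpha bin at 37120001 with the gap bin between alpha and beta, at 3.09 (2.32 to 4.04) and 2.46 (1.52 to 3.76), and the beta bin of Pcdhb17 to Pcdhb22 with the gamma bin at 37840001, at 3.03 (2.21 to 4.05) and 2.61 (1.63 to 3.95). The alpha bin at 37160001 met the same gap bin at 2.94 in WT and 3.42 in Firre KO. These pairs were chosen by their WT value, so lower values in Firre KO are a description only, for the pair named first as for 8 of the 10 strongest.

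Compartments asked whether the genes kept the company of active or inactive chromatin. In Hi-C, chromatin falls into an A compartment, rich in genes and active, and a B compartment, poor in genes and often at the nuclear lamina, and each meets its own kind. For each bin the preference was the log2 of its contact with A over its contact with B, at distances beyond 2 Mb, where partners were 126 windows of 200 kb called A and 179 called B on chromosome 18 in both matrices. In WT, alpha and beta lay near the middle of the autosomal bins and gamma on the A side, and in Firre KO all 3 groups had a lower preference.

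The preference of alpha was -0.43 (-0.57 to -0.29) in WT and -1.45 (-1.68 to -1.23) in Firre KO. Beta had -0.26 (-0.43 to -0.08) and -1.89 (-2.19 to -1.59). Gamma had 0.91 (0.77 to 1.05) in WT and -0.42 (-0.60 to -0.24) in Firre KO. The median autosomal bin had -0.24 and -0.22, so the WT values of alpha and beta were close to it. As a whole, the flanks were on the A side in both matrices, at 0.74 and 0.55 upstream and 1.06 and 0.77 downstream. The 3 upstream flank bins next to alpha were not, with -0.19, -0.66 and -0.49 in WT and -1.26, -1.93 and -1.62 in Firre KO. Their differences of -1.07, -1.27 and -1.13 were near that of the alpha group, -1.03, so with these partners the lower preference extended past the members. The flank bins are given with this choice of partners only, and the difference of alpha depended on that choice.

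By bin, 7 of the 21 member bins were above 0 in WT, all 6 of gamma and 1 of beta, beside 43.6% of autosomal bins. In Firre KO 2 of 21 were above 0, the last 2 gamma bins, beside 44.5% of autosomal bins. In 20 of 21 bins the preference was lower in Firre KO by more than 1.5-fold, beside 24.8% of autosomal bins, and 0 of 21 were higher by more than 1.5-fold, beside 25.1%. The median member difference of -1.42 was undercut by 6.14% of autosomal bins. The differences were -1.03 (-1.29 to -0.76) for alpha, -1.64 (-1.98 to -1.29) for beta and -1.32 (-1.55 to -1.10) for gamma.

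The choice of partners set much of this size. The compartment patterns of chromosome 18 were only partly alike between the matrices (r = 0.517 across 438 windows of 200 kb, lower than on 17 of the other 18 autosomes), and their r with gene density was 0.487 in WT and 0.239 in Firre KO. With partners called from WT alone, a choice made after the data were seen, 9 of 21 member bins were above 0 in WT, beside 44.0% of autosomal bins, and 2 in Firre KO, beside 47.0%. Of the 21, 11 were lower by more than 1.5-fold, beside 16.2% of autosomal bins. The median member difference was -0.59, undercut by 15.9% of autosomal bins. The group differences were then -0.15 (-0.35 to 0.05) for alpha, -0.46 (-0.71 to -0.21) for beta and -0.85 (-1.04 to -0.67) for gamma. With gene-rich and gene-poor windows as partners, 12 of 21 were above 0 in WT, beside 48.1% of autosomal bins, and 6 in Firre KO, beside 55.7%. Of the 21, 6 were lower by more than 1.5-fold, beside 10.0% of autosomal bins. The median member difference was -0.47, undercut by 14.8% of autosomal bins. The group differences were -0.14 (-0.35 to 0.06) for alpha, -0.39 (-0.65 to -0.14) for beta and -0.53 (-0.72 to -0.34) for gamma. The lower preference of gamma and beta thus went beyond counting error under each of these choices. That of alpha did with partners called in both matrices or from Firre KO alone, -1.30 (-1.52 to -1.08), and not with WT partners or those set by gene density. Gamma was below 0 in Firre KO with partners called in both matrices and with those of Firre KO alone, but had 0.04 (-0.11 to 0.19) with WT partners and 0.11 (-0.04 to 0.26) with partners set by gene density.

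**Figure D5:**
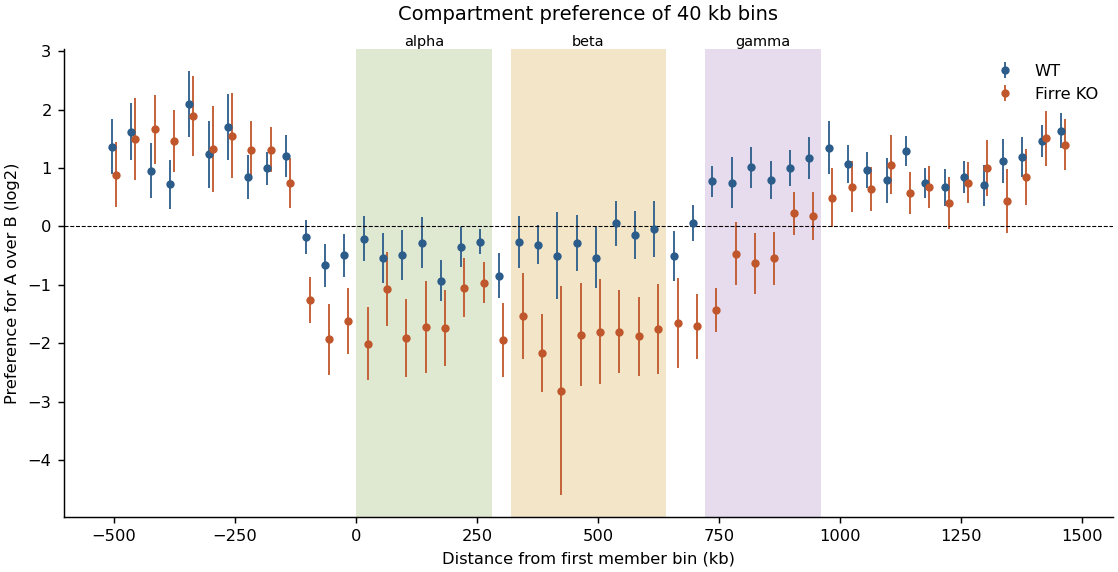
Preference for A over B (log2, partners beyond 2 Mb called alike in both matrices) of each 40 kb bin against distance from the first member bin in kb, in WT (blue) and Firre KO (orange), with 95% counting intervals and the 3 groups shaded. WT bins step down before alpha and up at the first gamma bin, at 0.77, whereas Firre KO bins rise across the gamma group from -1.43 in its first bin to 0.18 in its last.

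Along the chromosome the WT values changed in steps. Upstream, the bin of Zmat2 and Hars had a preference of 1.2 (0.85 to 1.56) and the next bin -0.19 (-0.48 to 0.10), at the place of the strong boundary. At the other end, the last gap bin had 0.06 (-0.26 to 0.37) and the first gamma bin, where Pcdhgc5 starts and which also holds Taf7, a gene for a subunit of the general transcription factor TFIID, 0.77 (0.51 to 1.03). In Firre KO the upstream step was at the same bins, from 0.74 (0.31 to 1.17) to -1.26 (-1.65 to -0.87). Its downstream change was spread over gamma, from -1.43 (-1.81 to -1.05) in the first bin to 0.22 (-0.15 to 0.59) in the fifth and 0.18 (-0.23 to 0.59) in the last.

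Members are given here by the bin in which they start. Of the members, Pcdhgc5 had the highest WT preference, 0.77, and -1.43 in Firre KO. It spans the 6 gamma bins, which ranged from 0.75 to 1.17 in WT and from -1.43 to 0.22 in Firre KO. Pcdhb9 to Pcdhb12, which share a bin, had the lowest in WT, -0.53, and -1.80 in Firre KO. The bin of Pcdha11 and Pcdha3 had -0.21 and -2.0. Pcdhb1 had -0.27 and -1.53, and the bin of Pcdhb22 -0.15 and -1.88. Apart from Pcdhgc5, the members ranged only from -0.53 to 0.05 in WT, the highest being Pcdhb13 to Pcdhb16 in 1 bin.

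Other gene sets give a scale for these values. Beside them, 43.6% of autosomal bins were above 0 in WT and 44.5% in Firre KO. By more than 1.5-fold, 24.8% of autosomal bins were lower and 25.1% higher in Firre KO. Of 10 non-clustered protocadherin genes, which are solitary relatives elsewhere in the genome, 3 had a preference above 0 in WT and 2 in Firre KO, with medians of -0.58 and -0.47, and 2 were lower and 2 higher by more than 1.5-fold. Pcdh1 and Pcdh12, which start in the downstream flank of the cluster, had 0.70 and 1.19 in WT and 1.01 and 0.85 in Firre KO and also count among the flank genes, whereas Pcdh9 on chromosome 14 had -0.78 and -1.65. Of 15 symbols listed for regulators of the cluster, among them Ctcf and the cohesin genes Rad21 and Smc3, 12 were autosomal genes with a value, and 12 of these were above 0 in WT and 10 in Firre KO, and 5 were lower and 3 higher by more than 1.5-fold. Of the 35 other protein-coding genes in the region, 30 start outside the cluster, in 14 bins, and all 30 were above 0 in both matrices, with 2 lower and 3 higher by more than 1.5-fold. The remaining 5, Gm6756, Gm10545, Slc25a2, Taf7 and 3222401L13Rik, start between the first and last member bin and are named after their values were seen. Of these 5, 3 were above 0 in WT and 0 in Firre KO, and all 5 were lower by more than 1.5-fold, like the member bins they share or adjoin. Olfactory receptor genes, a family of which each olfactory neuron uses a single member, had medians of -1.25 and -1.56 over 1088 genes. These start in 644 bins, and 423 of the genes were lower and 48 higher by more than 1.5-fold. The 39 Hox cluster genes, which start in 16 bins, were all above 0 in both matrices, with medians of 1.24 and 1.25. Of the Hox genes, 3 were lower and 6 higher by more than 1.5-fold.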

How the data were processed

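Hi-C libraries were made by in situ ligation after HindIII digestion. The authors mapped reads to mm9, pooled the libraries of a group, binned at 40 kb and corrected the matrix iteratively, with HiC-Pro 2.7.8 per the submitters' notes. The deposited signal is a corrected contact value per bin pair, equal to an integer count of ligated pairs multiplied by the weights of its bins. Weights and read pairs were recovered, and 100% of entries came out within 0.05 of a whole number. Read pairs gave the 95% intervals (Fay-Feuer for weighted sums, delta method for log2 ratios).

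Chromosome lengths of the mm9 genome sequence matched the bins for 22 of 22 chromosomes. Genes were placed with the GENCODE vM1 annotation. It merges most alpha genes into Pcdha11 and the gamma genes into Pcdhgc5, so other C-type genes were not analysed here. Genes at the ends of each group and those with the highest or lowest WT value were named. The members and lists were chosen with earlier results of these data known. Autosomal placements needed 80% of their bin pairs kept.

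Insulation used the study's settings (square 480 kb, delta 320 kb, smoothing 160 kb, interquartile mean, strength above 0) in an own implementation. Compartments were the first eigenvector of 200 kb windows, signed by gene density. The measures were tested on simulated data. Python 3.11.15, numpy 2.4.6, scipy 1.17.1 and pandas 2.3.3 were used.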

Additional observations from a re-analysis of the deposited data

How the results depend on the processing

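The 30 log2 ratios and differences were recomputed under 159 alternative settings. Of the 139 alternatives of the 25 contact and preference values, 128 stayed within the counting interval of the reported value and 11 moved outside, and all 92 alternatives of values whose interval excludes 0 kept the sign. Some of these could hardly move. All member and flank bins were kept in both matrices, so using shared bins only changed little. Blocks whose pairs all lay at least 80 kb apart kept the same pairs under that limit. Beta with gamma had -0.48 in the main setting and under both of these. Such repeats count among the 128 and the 92. The 5 insulation differences have no counting interval of their own, since that given beside them is of the plain mean. By the width of that interval, which may be too narrow for the interquartile mean, 14 of their 20 alternatives moved, and all 20 kept the sign. The cause was not tested, except where a setting counts other bin pairs by construction. With uncorrected read pairs the log2 ratio was -0.65 within beta, -0.56 for alpha with the upstream flank and -0.34 for beta with the window after alpha, and the insulation difference was -2.38 at the upstream edge, -0.61 in the alpha-beta gap and -0.47 in the beta-gamma gap. A 240 kb square gave -3.64 at the upstream edge, -0.50 in the beta-gamma gap and -0.66 in the first bin after gamma. A 960 kb square, which reaches past the neighbouring groups, gave -1.31 in the alpha-beta gap, -1.19 in the beta-gamma gap and -1.85 after gamma. The plain mean gave -1.44 at the upstream edge and -0.84 after gamma. For the compartment preference, partners called from WT alone gave -0.15 for alpha, -0.46 for beta and -0.85 for gamma. Partners called from Firre KO alone gave -1.30 for alpha and -0.97 for gamma, and partners set by gene density gave -0.14, -0.39 and -0.53. These partner sets, the subtraction of the level between autosomes, made on ratios of sums, and windows shifted by 1 bin were chosen after seeing the data. No paired analysis was possible because the libraries of each group were pooled into 1 matrix, and no replicate could be left out for the same reason. Depth was a limit too: the beta bins were thinnest, and alpha with the window after gamma rested on 66 and 34 read pairs.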
